A study of Mus musculus with 6 samples.

Results

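The genes described here are 7 nuclear genes of the mitochondrial inner membrane, out of 18197 gene symbols counted: 3 tissue-restricted genes, Ndufa4l2, Higd1b and Cox4i2, which are used as markers of mural cells (the pericytes and smooth muscle cells that wrap blood vessels), and 4 general relatives, Ndufa4, Higd1a, Higd2a and Cox4i1. They were selected on measured values of these libraries, namely the earlier seen difference of the restricted genes between the groups, so that difference is given as a description, with no test. All 7 symbols were found and all 7 had enough counts to enter the fit over all genes.

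RNA-seq was run on 6 libraries of sorted cancer-associated fibroblasts, the stromal cells of a tumour, from mammary tumours of C57BL/6 mice. All 6 come from mice whose tumours were induced by the polyoma middle T oncogene and were taken at 16 to 20 weeks. Of these libraries, 3 are labelled WT and 3 are labelled mPGES-1 KO, for microsomal prostaglandin E synthase-1, the enzyme that makes prostaglandin E2 in inflamed tissue. The sources used here give neither the promoter of the oncogene, nor the form or cell type of the deletion, nor the sorting markers, nor whether each library is a separate animal.

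Cytochrome c oxidase, or complex IV, is the last enzyme of the respiratory chain: it passes electrons from cytochrome c to oxygen and pumps protons. Nuclear genes supply most of its subunits, and several of these come in a general and a tissue-restricted form. Cox4i1 and Cox4i2 encode alternative forms of subunit 4, the restricted one being known from lung and from oxygen-sensing cells. Ndufa4 was first assigned to complex I and is now counted as a subunit of complex IV, and its relative Ndufa4l2 is known as a gene induced by hypoxia-inducible factors that lowers complex I activity. The HIG1 domain genes Higd1a, Higd1b and Higd2a encode small membrane proteins related to yeast respiratory supercomplex factors; Higd1a is itself hypoxia-inducible, Higd2a takes part in complex IV and supercomplex assembly, and Higd1b is widely used as a pericyte marker.

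Because the result turns on telling close relatives apart, the most alike stretches of the coding sequences are shown first, each as long as a sequencing read (75 bases). They were read from the GENCODE M21 transcripts on GRCm38, 5′ to 3′ on the coding strand, and capitals mark the bases at which the members of a pair differ. The Ndufa4l2 stretch covers coding bases 135 to 209, within chr10:127515476-127516444 on the plus strand, across exons 2 to 4. The Ndufa4 stretch covers coding bases 120 to 194, within chr6:11900590-11906031 on the minus strand, also across exons 2 to 4.
Ndufa4l2: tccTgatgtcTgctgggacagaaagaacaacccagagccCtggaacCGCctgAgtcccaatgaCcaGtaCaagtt
Ndufa4: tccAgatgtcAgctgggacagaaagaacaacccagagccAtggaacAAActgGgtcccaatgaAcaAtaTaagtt

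The Higd1b stretch covers coding bases 162 to 236, within chr11:102837295-102837908 on the plus strand, in exons 2 and 3. The Higd1a stretch covers coding bases 159 to 233, at chr9:121850187-121850261 on the minus strand, in exon 3.
Higd1b: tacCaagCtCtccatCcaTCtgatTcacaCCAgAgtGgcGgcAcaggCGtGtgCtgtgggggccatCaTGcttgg
Higd1a: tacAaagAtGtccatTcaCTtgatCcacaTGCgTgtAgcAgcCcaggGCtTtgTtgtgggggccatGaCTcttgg

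The Cox4i2 stretch covers coding bases 437 to 511, at chr2:152764799-152764873 on the plus strand, in exon 4, and the Cox4i1 stretch coding bases 428 to 502, at chr8:120674025-120674099 on the plus strand, in exon 5.
Cox4i2: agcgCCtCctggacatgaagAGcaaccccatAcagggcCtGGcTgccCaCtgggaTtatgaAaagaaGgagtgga
Cox4i1: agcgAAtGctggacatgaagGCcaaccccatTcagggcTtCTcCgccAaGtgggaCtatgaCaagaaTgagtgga

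Even at their most alike, a read from one gene of a pair differed from the other at 10 bases for Ndufa4l2 and Ndufa4, 21 bases for Higd1b and Higd1a, and 15 bases for Cox4i2 and Cox4i1. Over the aligned coding sequence the identity was 69.2%, 60.0% and 69.6%, and the longest identical run was 28, 12 and 14 bases. No 75-base word of the annotated transcripts was common to members of the set (0 words). The 3 restricted genes, Ndufa4 and Higd2a shared 0 of their 75-base words with any other annotated gene. Higd1a shared 740 of 3371 words, most of them with the antisense gene Gm47112 and some with the processed pseudogenes Gm9790 and Gm14925, and Cox4i1 shared 80 of 1735 words with the opposite-strand gene Emc8. The kit does not mark strand, so the counts of Higd1a and Cox4i1 are less certain in that part; 22.5% and 9.94% of their exonic bases overlap these neighbours, and 2.92% of those of Ndufa4l2 overlap Shmt2 on the opposite strand.

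The restricted genes were abundant in libraries with the WT label, and their means were 31.5- to 82.5-fold lower under the mPGES-1 KO label, while their general relatives differed between the group means by at most 1.44-fold. Levels are in CPM, the count scaled to a common library total with TMM factors, and a log2 fold change is mPGES-1 KO over WT with its standard error (SE) from the edgeR fit over 16543 genes. Means are given ± SD with n = 3 per group.

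Ndufa4l2 (GRCm38 chromosome 10, 127514967 to 127517154, plus strand) stood at 670.3, 1028 and 490.6 CPM in the WT libraries, in the order of replicates 1, 2 and 3 kept throughout. In the mPGES-1 KO libraries it stood at 8.998, 9.51 and 22.9 CPM. The groups were far apart, and mPGES-1 KO replicate 3 was the highest of its group. The means were 729.6 ± 273.5 and 13.8 ± 7.89 CPM, a log2 fold change of -5.72 ± 0.55 (SE). By mean level Ndufa4l2 ranked 147 of 18197 symbols in the WT libraries and 8374 in the mPGES-1 KO libraries.

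Ndufa4 (chromosome 6, 11900292 to 11907497, minus strand), the general form, stood at 294.7, 282 and 485 CPM in the WT libraries and at 335, 456 and 540.0 CPM in the mPGES-1 KO libraries. The groups overlapped, since WT replicate 3 lay above 2 of the mPGES-1 KO libraries. Its log2 fold change was 0.33 ± 0.32.

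Higd1b (chromosome 11, 102835849 to 102838040, plus strand) stood at 403, 1128 and 382 CPM in the WT libraries and at 6.66, 3.98 and 12.5 CPM in the mPGES-1 KO libraries. WT replicate 2 stood well above the other WT libraries, and the groups did not overlap. The means were 638 ± 425 and 7.73 ± 4.38 CPM, a log2 fold change of -6.36 ± 0.70, the farthest from 0 of the 7 genes. Without WT replicate 2 it was -5.61.

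Higd1a (chromosome 9, 121848563 to 121858362, minus strand) stood at 52.0, 81.1 and 66.3 CPM in the WT libraries and at 57.1, 44.4 and 54.4 CPM in the mPGES-1 KO libraries, with overlapping groups and a log2 fold change of -0.36 ± 0.29. Higd2a (chromosome 13, 54590207 to 54591158, plus strand), the assembly factor, was even across the WT libraries at 146, 150 and 144 CPM and stood at 213.7, 168 and 252.8 CPM in the mPGES-1 KO libraries. Higd2a was the only general member whose groups did not overlap, with every mPGES-1 KO library above every WT library and a log2 fold change of 0.53 ± 0.25.

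Cox4i2 (chromosome 2, 152754173 to 152765037, plus strand) stood at 112, 207 and 144 CPM in the WT libraries and at 1.94, 2.05 and 10.7 CPM in the mPGES-1 KO libraries. The last value rests on 378 reads against 53 and 49 in the other mPGES-1 KO libraries. The means were 154 ± 48.5 and 4.90 ± 5.03 CPM, a log2 fold change of -4.97 ± 0.78, and -6.27 without mPGES-1 KO replicate 3. Cox4i1 (chromosome 8, 120668222 to 120674207, plus strand), the general subunit 4, stood at 825, 1060 and 1060 CPM in the WT libraries and at 587, 625 and 854 CPM in the mPGES-1 KO libraries, with groups that met only through mPGES-1 KO replicate 3. Its log2 fold change was -0.51 ± 0.28.

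**Figure D1:**
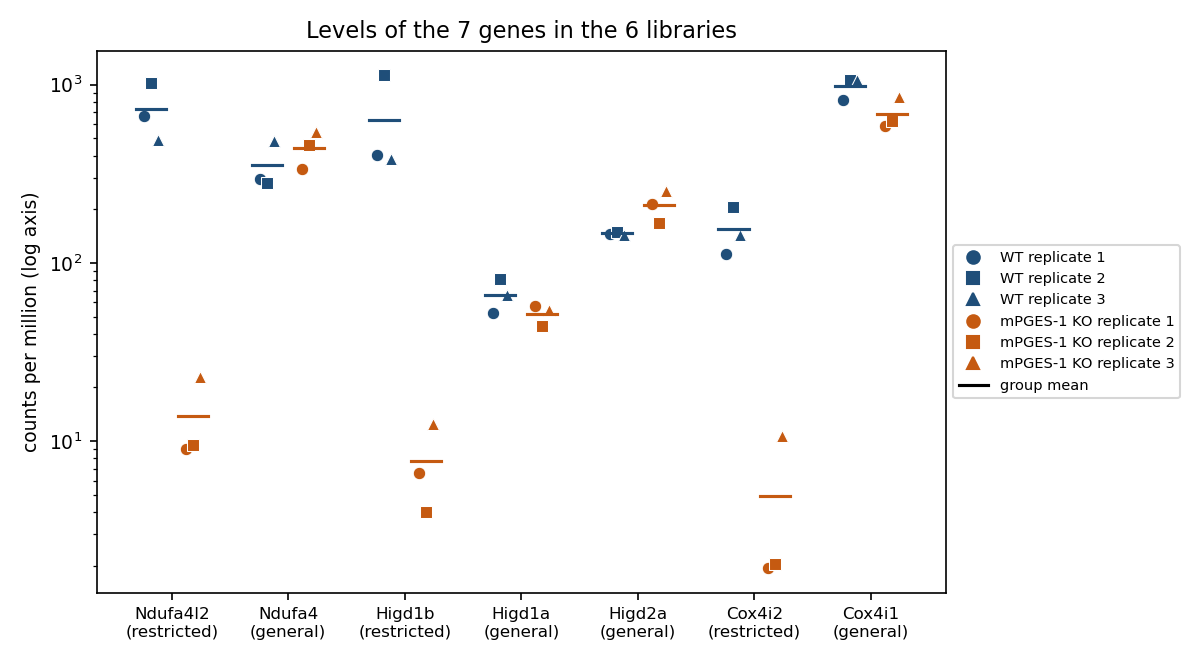
CPM (log axis) of the 7 genes in each of the 6 libraries; symbols give the replicate, blue is WT, orange mPGES-1 KO and bars are group means. The 3 restricted genes lie far apart between the groups, with mPGES-1 KO replicate 3 the highest of its group, while Ndufa4, Higd1a and Cox4i1 overlap and Higd2a is higher in the mPGES-1 KO libraries.

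Of the 7 genes, 3 (the restricted genes) were called lower at an adjusted p under 0.05 in edgeR's quasi-likelihood test, where 2.76% of all tested genes were called and 1.56% were called lower. In 4 of the 7 the groups did not overlap, 3 lower and Higd2a higher, where 27.9% of all tested genes were apart, 15.7% lower and 12.2% higher. Nothing is read from these counts, since the same difference served to choose the genes. All 3 calls were lost when replicate number was a block, and without WT replicate 2, mPGES-1 KO replicate 2 or mPGES-1 KO replicate 3. Without WT replicate 3 or mPGES-1 KO replicate 1, 1 of the 3 was lost. The block left 0 calls among all 16543 tested genes, and the labels do not pair the replicate numbers.

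Within a library, the scaling cancels when a gene is set against its relative. Per kilobase of merged exon, Ndufa4l2 made up 74.2%, 82.1% and 56.0% of the Ndufa4l2 and Ndufa4 sum in the WT libraries, and 3.28%, 2.56% and 5.08% in the mPGES-1 KO libraries. On merged exons Ndufa4l2 was thus the more abundant of the 2 in each WT library and a small minority in each mPGES-1 KO library. Higd1b made up 96.5%, 98.0% and 95.4% of the Higd1b and Higd1a sum in the WT libraries and 29.5%, 24.3% and 45.3% in the mPGES-1 KO libraries. Cox4i2 made up 21.0%, 27.8% and 21.1% of the subunit 4 sum in the WT libraries and 0.645%, 0.642% and 2.41% in the mPGES-1 KO libraries. Subunit 4 RNA was therefore mostly Cox4i1 in all 6 libraries.

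The share depends on the length given to each gene. The merged exons of Ndufa4, Higd1a and Cox4i1 span 1381, 3040 and 1550 bases, and their longest protein-coding transcripts 610, 2232 and 765 bases. With the longest protein-coding transcript as the length, the mean WT share was 56.6 ± 15.6% for Ndufa4l2, where it had been 70.8 ± 13.4%, and 13.9 ± 2.62% for Cox4i2, where it had been 23.3 ± 3.87%. On that length Ndufa4l2 was the minority form in WT replicate 3, at 39.8%. The Higd1b share hardly moved, at 96.1 ± 1.55% and 96.7 ± 1.33%. In the mPGES-1 KO libraries the mean share of Ndufa4l2 was 3.64 ± 1.30% on merged exons and 1.92% on the longest protein-coding transcript, and that of Cox4i2 was 1.23 ± 1.02% and 0.659%. The mean Higd1b share there was 33.0 ± 10.9% on merged exons, 29.6% on that transcript and 12.5% with no length.

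**Figure D2:**
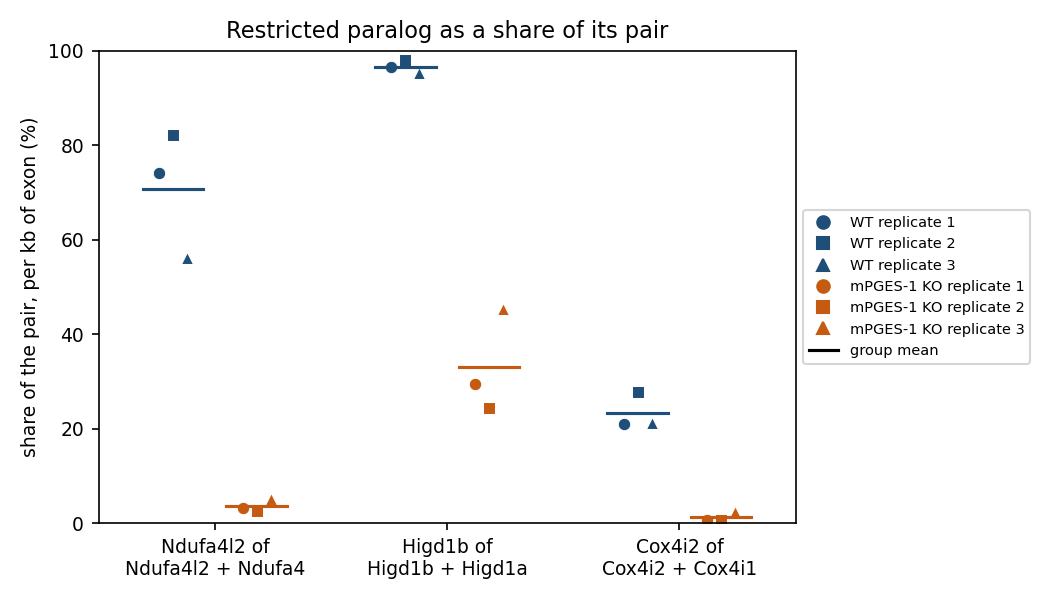
Share of the restricted gene in the sum of its pair, in percent, from counts per kilobase of merged exon, in each library; bars are group means. The mean Higd1b share was 96.7% in the WT libraries and 33.0% in the mPGES-1 KO libraries, and the groups are apart in each of the 3 pairs.

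The pair sums, in CPM per kilobase of merged exon, put both forms together. For Ndufa4l2 and Ndufa4 together the sum was 825.5, 1143 and 799.5 in the WT libraries and 250.7, 339 and 412 in the mPGES-1 KO libraries. For Higd1b and Higd1a it was 493, 1358 and 472 against 26.6, 19.3 and 32.7. For the subunit 4 genes it was 674, 946.6 and 866.7 against 381, 406 and 564.5. All 3 sums were lower in every mPGES-1 KO library than in every WT library.

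On the same scale the order of the 7 genes differed between the groups. Cox4i1 led in all 3 mPGES-1 KO libraries, at 379, 403 and 551 CPM per kilobase, followed by Ndufa4 and Higd2a in either order, with Cox4i2 last in each. In the WT libraries a different gene led each time: Ndufa4l2 in replicate 1 (612), Higd1b in replicate 2 (1332) and Cox4i1 in replicate 3 (683.8). Higd1a was last in each WT library, at 17.1, 26.7 and 21.8 CPM per kilobase. The WT means of Higd1b (753 ± 501), Ndufa4l2 (666 ± 249.7) and Cox4i1 (633 ± 87.5) did not differ beyond their spread, nor did those of Ndufa4 (256 ± 82.4), Higd2a (226.5 ± 4.51) and Cox4i2 (196 ± 61.6).

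The proportions among the restricted genes varied within both groups. The ratio of Ndufa4l2 to Higd1b per kilobase ran from 0.705 to 1.28 in the WT libraries and from 1.05 to 1.85 in the mPGES-1 KO libraries. That of Ndufa4l2 to Cox4i2 ran from 2.45 to 4.32 and from 1.54 to 3.34, and that of Higd1b to Cox4i2 from 2.46 to 5.07 and from 1.09 to 3.19. In each case the ranges of the groups overlapped.

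Likeness of profile was measured as the root mean square difference of log2 CPM over the 6 libraries, each gene centred on its own mean, so that a smaller value is a closer profile. The 3 restricted genes lay 0.433 (Ndufa4l2 and Higd1b), 0.479 (Ndufa4l2 and Cox4i2) and 0.707 (Higd1b and Cox4i2) apart, and each lay 2.52 or more from every general member. Among the general genes, Higd1a and Cox4i1 were the closest at 0.224. The 6 libraries fall into 2 groups, so this measure is led by the difference between the groups.

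Outside the set, 10908 genes whose mean over the 6 libraries reached 5 CPM were compared with each restricted gene. Predicted genes, Rik names and pseudogenes were left out. The closest to Ndufa4l2 were Slc2a3, a neuronal-type glucose transporter (0.479), Des, the intermediate filament desmin of muscle and pericytes (0.48), Jaml, a junctional adhesion molecule (0.482), Sept4, a septin (0.493), and Rgs16, a regulator of G protein signalling (0.631). The closest to Higd1b were Adap2 (0.527), Jaml (0.604), Ndst3 (0.661), Mrvi1 (0.667) and Insc (0.702). Slc2a3 was also the closest to Cox4i2 (0.332), followed by Gucy1a3, a subunit of the nitric oxide receptor guanylate cyclase (0.591), Sept4 (0.595), Jaml (0.611) and Des (0.71). Jaml was thus among the 5 nearest of all 3. Ndst3, Mrvi1 and Insc reached at most 0.293 CPM in any mPGES-1 KO library. They, like Slc2a3, Des, Jaml and Adap2, averaged under 5 CPM in the mPGES-1 KO libraries. All of these passed the limit of 5 CPM only through the WT libraries, where they are high. Part of the exons of Jaml (12.8%), Rgs16 (10.1%), Adap2 (8.2%) and Des (5.9%) overlaps a gene on the opposite strand, so those counts are less certain.

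Slc2a3 stood at 13.4, 28.3 and 18.2 CPM in the WT libraries and at 0.22, 0.419 and 1.13 CPM in the mPGES-1 KO libraries, with the same order of libraries as Cox4i2. Sept4 stood at 693.9, 1205 and 468 CPM and at 19.6, 20.2 and 42.4 CPM, and Des at 232, 417 and 150 CPM and at 1.61, 5.28 and 7.56 CPM. Gucy1a3 stood at 87.5, 127 and 82.6 CPM and at 2.45, 3.86 and 10.8 CPM. In Slc2a3, Sept4, Des and Gucy1a3, as in the 3 restricted genes, WT replicate 2 was the highest WT library. Of the mPGES-1 KO libraries, replicate 3 was the highest in each of these genes. They were picked for likeness over the same 6 libraries, so a shared order was partly fixed by the choice. Adap2 and Ndst3, also among the nearest, were highest in mPGES-1 KO replicate 1 within that group, at 0.695 and 0.293 CPM.

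Most mural markers outside the set were lower in the same libraries. In edgeR's test 8 of 16 markers of pericytes and vascular smooth muscle fell, none rose and 8 did not pass. Of all tested genes 1.56% were called lower. The median log2 fold change of the markers was -4.04 beside -0.04 over all tested genes. Of the 16 values, 15 were negative and 1 was positive, that of Cnn1 (7.92 CPM in WT and 11.5 CPM in mPGES-1 KO libraries on average). The smooth muscle markers Myh11 (28.6 and 3.82 CPM) and Tagln (16.6 and 3.50 CPM) were not called. All 8 calls were lost with the replicate block and without WT replicate 2, mPGES-1 KO replicate 2 or mPGES-1 KO replicate 3. Rgs5, a regulator of G protein signalling and pericyte marker, was at 2291, 1512 and 858 CPM in the WT libraries and 119.6, 49.9 and 92.7 CPM in the mPGES-1 KO libraries. Esam, an adhesion molecule, was at 235, 379 and 120.5 CPM and at 7.02, 5.11 and 2.29 CPM. The summed level of 17 such markers was 2975 to 7260 CPM in the WT libraries and 211 to 472 CPM in the mPGES-1 KO libraries. In bulk RNA, fewer cells of a type and less RNA per cell cannot be told apart.

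Set against the summed markers, the mean levels of the restricted genes were lower still. Single markers were not all less reduced, since their log2 fold changes ran from -5.79 (Des) to 0.535 (Cnn1). Esam stood at -5.67, beside -5.72 for Ndufa4l2 and -4.97 for Cox4i2. Of the restricted genes only Higd1b, at -6.36, lay below all of these markers. Per 100 reads of the summed markers, Ndufa4l2 had 10.6, 14.2 and 16.5 reads in the WT libraries and 2.40, 4.51 and 4.86 in the mPGES-1 KO libraries. Higd1b had 6.40, 15.5 and 12.8 reads and then 1.77, 1.89 and 2.66. Cox4i2 had 1.77, 2.85 and 4.85 reads and then 0.517, 0.974 and 2.27, and its groups overlapped through mPGES-1 KO replicate 3. The mean differences on the log2 scale were -1.85, -2.39 and -1.47, and -1.93, -2.46 and -1.55 when Rgs5, the most abundant marker, was left out of the sum. This division was chosen after the data were seen. It also reuses the difference on which the restricted genes were selected, so a value below that of the marker sum is favoured by the selection. The part that mural RNA plays in the levels of the restricted genes was not tested.

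**Figure D3:**
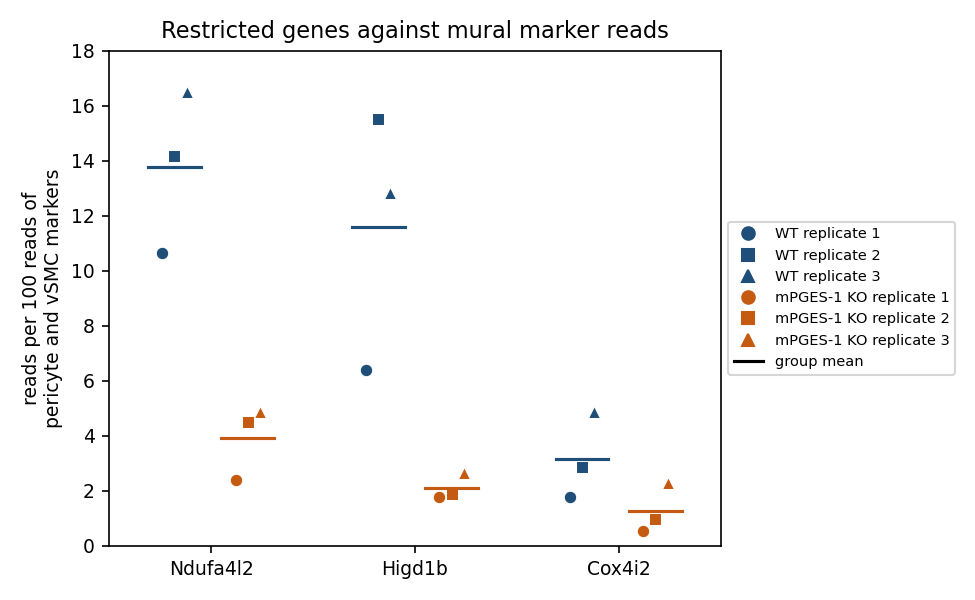
Reads of Ndufa4l2, Higd1b and Cox4i2 per 100 reads of 17 pericyte and vascular smooth muscle (vSMC) markers in each library; bars are group means. Ndufa4l2 and Higd1b are lower in every mPGES-1 KO library than in every WT library, and Cox4i2 overlaps at 1.77 and 2.27 reads.

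The other nuclear subunits of complex IV differed far less than the restricted genes. Of 9 that have no place in the set, 0 passed edgeR's test in either direction. An unadjusted p under 0.05 was found for 1, and DESeq2 called 0. Of all tested genes 2.76% passed, 19.1% had an unadjusted p under 0.05 and DESeq2 called 12.7%. Counts from 9 genes are too few to set against these shares. All 9 log2 fold changes were negative, from -0.81 to -0.28, with a median of -0.38 beside -0.04 over all tested genes. Cox6c, a small membrane subunit, had the lowest value and stood at 270.5, 509.5 and 546 CPM in the WT libraries and 262, 194 and 302 CPM in the mPGES-1 KO libraries. Cox6a1, Cox6b1 and Cox8a, further subunits, had log2 fold changes of -0.44, -0.28 and -0.33. Summed, the 9 subunits took 3384 ± 690 CPM in the WT libraries and 2510 ± 478 CPM in the mPGES-1 KO libraries (two-sided exact permutation test, p = 0.2, n = 3 per group, where the smallest possible p is 0.1). The values of the general genes Cox4i1 (-0.51) and Higd1a (-0.36) lay within the range of these subunits, and those of Ndufa4 (0.33) and Higd2a (0.53) lay above it.

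Other restricted isoforms of complex IV were low in all libraries. Cox6a2, Cox7a1 and Cox8b, forms known from muscle and brown fat, and Cox6b2, known from testis, were at most 17.0 CPM in any library. Of these 4, 0 passed edgeR's test, 1 had an unadjusted p under 0.05 and DESeq2 called 0. The shares of all tested genes were 2.76%, 19.1% and 12.7%. Cox6b2 had the lowest value, at 3.53, 14.8 and 17.0 CPM in the WT libraries and 3.33, 2.01 and 2.80 CPM in the mPGES-1 KO libraries (log2 fold change -2.11 ± 0.83, adjusted p = 0.219). Cox7a1 was at 7.34 and 7.001 CPM on average and Cox8b at 4.61 and 2.88 CPM, all with overlapping groups. Cox6a2 had 0 reads in WT replicate 1 and mPGES-1 KO replicate 1, and its highest level was 4.16 CPM, in mPGES-1 KO replicate 3. The counts held no entry under the symbols of the family relatives AA467197, Higd1c and Higd2b. The same held for the isoforms Cox7b2 and Cox8c, so none of these was analysed here.

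Of 35 tested subunits of complex I, the enzyme that takes electrons from NADH, 0 were called, where 2.76% of all tested genes were. A negative log2 fold change was found for 32, and the median was -0.62. An unadjusted p under 0.05 was found for 15 and DESeq2 called 2, where 19.1% and 12.7% of all tested genes did so. Ndufa13, Ndufa2, Ndufv2 and Ndufc2, those with the highest mean CPM, had log2 fold changes of -0.77, -1.09, -0.51 and -0.28, and 30% and 11.5% of the exons of Ndufa13 and Ndufa2 overlap an opposite-strand gene. Of 21 assembly factors of complex IV and supercomplexes 0 were called (2 at an unadjusted p under 0.05, 0 by DESeq2), with a median of -0.52, and of 9 complex III and cytochrome c genes 0 were called (2 at an unadjusted p under 0.05, 0 by DESeq2), with a median of -0.45. The mitochondrially encoded complex IV subunit mt-Co1 stood at 5039, 1126 and 1937 CPM in the WT libraries. In the mPGES-1 KO libraries it stood at 6679, 4145 and 5316 CPM (adjusted p = 0.388 in edgeR). The other mitochondrially encoded subunits of complex IV, mt-Co2 and mt-Co3, had no entry in the counts. Nor had Ndufs3, Uqcrc1, Cox20, Sco2 and Pet117 of the lists above. Of 11 regulators of mitochondrial biogenesis 0 were called (2 at an unadjusted p under 0.05, 2 by DESeq2), with a median of 0.29.

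**Figure D4:**
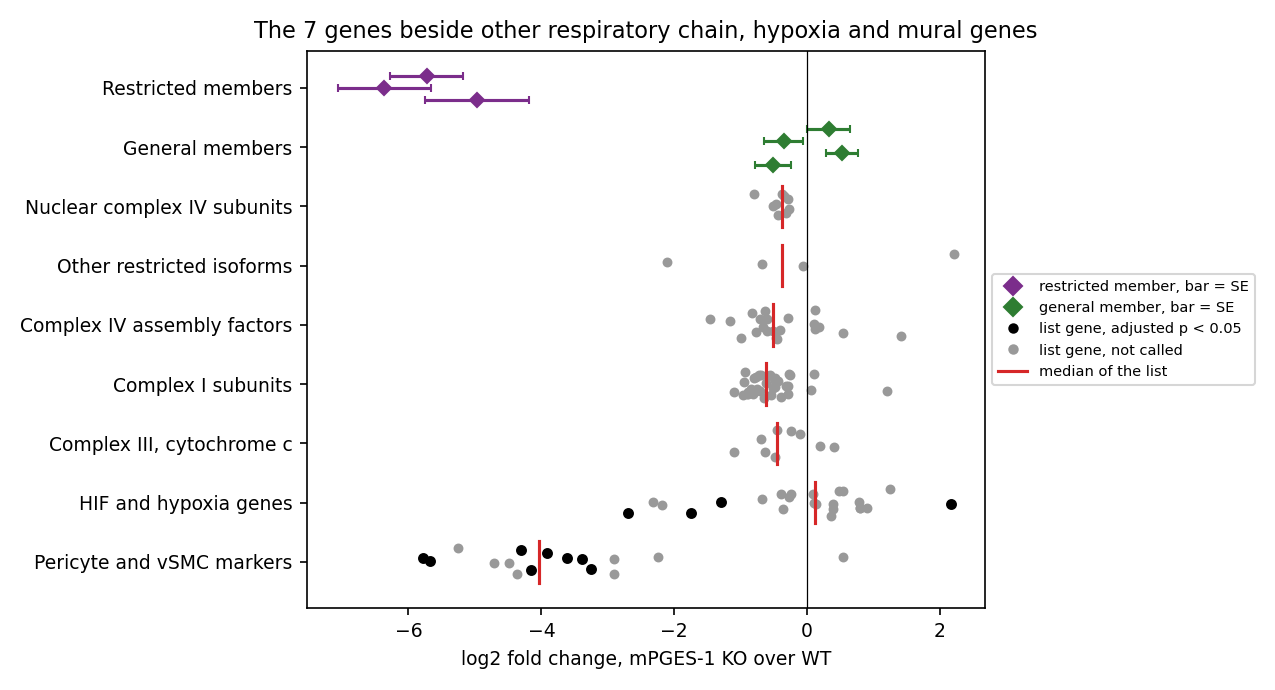
Log2 fold change, mPGES-1 KO over WT, of the 7 genes (diamonds with SE; from the top Ndufa4l2, Higd1b and Cox4i2, then Ndufa4, Higd1a, Higd2a and Cox4i1) and of the genes of 7 other lists (points, black where the adjusted p was under 0.05, with the list median as a red bar). The restricted genes, at -6.36 to -4.97, lie among and below the mural markers, whose median was -4.04, while the general genes lie between -0.51 and 0.53.

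Hypoxia genes moved in both directions. Of 24 tested genes of the HIF pathway and its targets, 3 fell, 1 rose and 20 did not pass in edgeR's test, beside 1.56% of all tested genes called lower and 1.20% called higher, and the median was 0.12. Epas1, which encodes HIF-2 alpha, an oxygen-regulated transcription factor prominent in vessels, fell from 95.2 ± 33.5 to 14.6 ± 5.92 CPM (log2 fold change -2.70 ± 0.44, adjusted p = 0.0282 in edgeR, n = 3 per group). Egln2, a prolyl hydroxylase that marks HIF alpha subunits for destruction, fell from 101 ± 15.5 to 30.1 ± 7.81 CPM (adjusted p = 0.0332 in edgeR). P4ha2, a collagen prolyl hydroxylase, fell from 105 ± 18.1 to 42.6 ± 4.93 CPM (adjusted p = 0.0484 in edgeR). Vegfa, the angiogenic growth factor and a classical hypoxia target, rose from 39.9 ± 6.68 to 179 ± 96.0 CPM (adjusted p = 0.0383 in edgeR).

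The groups did not overlap in Epas1, Egln2, P4ha2 or Vegfa, which were named because they were called. They did not overlap in 5 of the 24 list genes, where 27.9% of all tested genes were apart, so this adds nothing to the calls. All 4 calls were lost when replicate number was a block (adjusted p from 0.0904 to 0.149) and without WT replicate 2 or any of the mPGES-1 KO libraries. Without WT replicate 1 Vegfa and P4ha2 were lost, and without WT replicate 3 all but Epas1; P4ha2 was also lost with DESeq2 size factors and with no filter. Over 12 alternatives the adjusted p ran from 9.40e-07 to 0.125 for Epas1, from 8.40e-05 to 0.153 for Egln2, from 1.79e-05 to 0.136 for Vegfa and from 0.00207 to 0.23 for P4ha2.

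Values of the whole series that bear on these genes are as follows. Total counts ran from 37432510 to 43648450 in the WT libraries and from 23013498 to 37249186 in the mPGES-1 KO libraries, so 1 read stood for 0.0228 to 0.0419 CPM, and no restricted gene had fewer than 49 reads in any library. Ptges, which encodes mPGES-1, was at 128.5 to 186 CPM under the mPGES-1 KO label and at 19.2 to 31.9 CPM under the WT label. Its count covers the whole gene and the deleted part is not known here, so it does not check the labels, on which every direction here rests. The summed level of 11 fibroblast markers was 9378 to 29050 CPM in the WT libraries and 6586 to 18480 CPM in the mPGES-1 KO libraries, so markers of the labelled cell type were detected in all. Of the 11, 1 fell and 10 did not pass in edgeR's test, where 1.56% of all tested genes were called lower. A negative log2 fold change was found for 8 and the median was -0.72. The called marker was Thy1, a surface glycoprotein also found on other cells, at 213 ± 54.8 and 22.9 ± 11.8 CPM (log2 fold change -3.21, adjusted p = 0.0184 in edgeR, n = 3 per group, from 6.37e-10 to 0.0926 over 12 alternatives). Thy1 was not called with the replicate block or without WT replicate 2, mPGES-1 KO replicate 2 or mPGES-1 KO replicate 3. Col1a1, a collagen chain, was at 1324, 3547 and 6820 CPM in the WT libraries and 1211, 429 and 425 CPM in the mPGES-1 KO libraries. Dcn, a fibroblast proteoglycan, was at 5398, 1149 and 6413 CPM and at 8823, 3245 and 5346 CPM, lowest in WT replicate 2, the library highest in the 3 restricted genes. The 14 luminal epithelial markers summed to 12790 to 19320 CPM in WT libraries and to 42820 to 56480 CPM in mPGES-1 KO libraries. In edgeR's test 6 of the 14 rose and 0 fell, where 1.20% of all tested genes were called higher and 1.56% lower. Under the replicate block or without WT replicate 2, mPGES-1 KO replicate 2 or mPGES-1 KO replicate 3, 0 were called. Epcam, an epithelial adhesion molecule, was at 338 to 633 CPM and 3743 to 4899 CPM. Endothelial markers summed to 23.6 to 92.9 CPM and 12.9 to 105 CPM, leukocyte markers to 188 to 539.9 CPM and 270.4 to 1170 CPM, striated muscle markers to 29.2 to 44.6 CPM and 17.0 to 40.3 CPM, and brown adipocyte markers to 289 to 697 CPM and 83.3 to 374 CPM. Single genes made up much of some of these sums. Fabp4 averaged 457 and 171 CPM in the WT and mPGES-1 KO libraries, against brown adipocyte sums averaging 496 and 210 CPM. Adipoq and Plin1, further markers of that list, averaged at most 1.94 CPM in either group. Lyz2 averaged 225 and 543 CPM, against leukocyte sums averaging 307 and 713 CPM. The part of the epithelial difference in the levels of the general genes was not tested.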

How the data were processed

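The authors deposited 1 table of unnormalized whole-number counts, 18197 gene symbols by 6 columns, which were matched to samples by label. Per the labels' protocols, cDNA was amplified by 16 PCR cycles with a template-switching kit and read as single reads of 75 cycles. STAR, FastQC 0.11.5 and the mm10 build are listed in the submitters' processing notes, with no role given. The sources used here name no counting program or annotation. Gene models and sequences come from GENCODE M21 (GRCm38, equal to mm10), where 17664 symbols matched 1 gene.

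The test was edgeR 4.0.16 under R 4.3.3 (filterByExpr, TMM, robust quasi-likelihood fit, all 6 libraries, no covariate, two-sided). Benjamini-Hochberg adjustment covered all 16543 genes, and an adjusted p under 0.05 was a call. The common biological coefficient of variation, 0.818, limits calls to wide differences. SE is the absolute log2 fold change over the square root of F. The fit was tested on simulated data. Profiles used log2 CPM with a prior count of 2. No label names separate animals, so a p-value measures the spread of these libraries alone, which may be technical. The members and lists were chosen with earlier results of these data known. The text names the members, the 5 nearest profiles of each restricted gene, Ptges and up to 4 genes of a list, called ones first and then by level. Further markers are named where they show the spread or make-up of a list.

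Alternatives were DESeq2 size factors, library size, no filter, at least 1 CPM in 3 libraries, DESeq2 1.42.0, a replicate block, leaving out each library, and other gene lengths. Same-numbered libraries were not paired in the labels.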

Additional observations from a re-analysis of the deposited data

How the results depend on the processing

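The log2 fold changes of all 7 genes kept their sign over 13 alternatives each: Ndufa4l2 ran from -6.30 to -5.34, Higd1b from -6.90 to -5.61, Cox4i2 from -6.27 to -4.58, Ndufa4 from 0.16 to 0.62, Higd1a from -0.48 to -0.13, Higd2a from 0.38 to 0.70 and Cox4i1 from -0.69 to -0.40. These include TMM factors computed without the members and the pericyte and luminal markers, an alternative added after the data were seen, as were the longest protein-coding transcript as length and the marker sum without Rgs5. Of all genes, 456 were called, 2108 with DESeq2, 0 with the replicate block (2716 at an unadjusted p under 0.05), and 0 to 568 with a library left out. WT replicate 2 left out gave 1 call, and leaving out mPGES-1 KO replicate 2 or 3 gave 0 in edgeR (2574 and 2975 at an unadjusted p under 0.05). DESeq2 called 2 complex I subunits and 2 biogenesis regulators where edgeR called 0. Of the hypoxia genes 4 were called, 0 with the block and 0 to 2 with a library left out, and their median of 0.12 ran from -0.094 to 0.365 with a library left out, turning negative without WT replicate 3 and, at -0.015, without mPGES-1 KO replicate 1. Among uncalled isoforms, leaving out a library gave Cox7a1 -0.358 to 0.154 (positive without WT replicate 2 and, at 0.08 and 0.068, without mPGES-1 KO replicates 2 and 3), Cox8b -1.039 to 0.07 (positive without WT replicate 3) and Cox6a2 -0.932 to 2.878 (negative without mPGES-1 KO replicate 3). Dcn gave -0.001 to 0.824, the lowest with mPGES-1 KO replicate 1 left out. The cause of these turns was not tested. The difference in share, mPGES-1 KO minus WT, was -63.6 percentage points for Higd1b and -76.5 without a length, and -22.1 for Cox4i2, -12.8 without a length, -13.3 with the longest transcript and -13.3 with the longest protein-coding transcript, a change that comes from the length itself. The labels do not pair the replicate numbers. Deviations from the group means correlated at -0.0634, 0.0278 and -0.0166 in the same-numbered pairs, and from -0.0517 to 0.0631 in the other pairs. With 3 libraries per group these values cannot decide whether libraries were paired.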
